A study of Rattus norvegicus with 14 samples.

Results

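DNA methylation of new tissue from esophageal grafts at week 1 was compared with that of esophagus never operated on, in 8 of the 14 samples of the series. The 4 week 1 libraries came from tissue that had formed in the area of the original graft, 7 days after a defect of the esophagus was repaired with an acellular bi-layer silk fibroin (BLSF) scaffold. The 4 control libraries came from full-thickness esophagus of non-surgical controls (NSC). All donors were male rats of 8 to 9 weeks, and the labels name no strain. Of the series' samples, 13 had a file. The fifth sample labelled week 1 was not analysed here, and host tissue taken at day 1 was left out.

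Methylation of the cytosine in a CpG is copied onto new DNA strands by a maintenance methyltransferase, set at unmethylated sites by de novo methyltransferases, and removed through oxidation by TET enzymes or by loss over cell divisions. In mammalian genomes most isolated CpGs are methylated, while CpG-dense islands, many of them at promoters, are mostly free of methylation. Intermediate levels in a tissue can arise where its cell types, or the 2 alleles, differ at a site. MspI cuts at CCGG whatever the methylation of its inner CpG, so reduced representation bisulfite sequencing reads fragments rich in CpGs, and the unit measured is the share of reads that kept their cytosine.

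Between 1450298 and 4181382 CpG cytosines were listed for a library. The reads summed over them were 26135180 to 49782600 in the NSC libraries and 11340709 to 26135062 in the week 1 libraries, so the NSC libraries were deeper, although the shallowest of them and the deepest week 1 library were close. At least 10 reads in all 4 NSC libraries and in at least 3 week 1 libraries were found at 107791 cytosines of chromosomes 1 to 20, of which 46416 had them in all 8 libraries. Summing reads over tiles of 1000 bp with at least 3 of these cytosines gave 14151 tiles, with a median of 4 cytosines. The median tile had 126 to 173 reads in an NSC library and 55 to 116 in a week 1 library. Reads of a tile are summed over its cytosines, here and below, so a read covering several of them counts several times. In 5113 tiles no cytosine had 10 reads in 1 week 1 library, most often replicate 2 (2471 tiles). That library is said below to have no reads there, because cytosines under 10 reads were not counted. Group means in these tiles rest on the other 3 libraries. Library codes run in the order of the groups, so an effect of processing order cannot be told apart from the group. Tissue is a mixture, so a change within cells and a change in the share of a cell type cannot be told apart in any result here. The groups also differ in what was dissected, the whole wall against new tissue, and no marker of a cell type is measured by these data.

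Week 1 graft tissue had more CpG methylation than NSC. Over the 46416 cytosines read in all 8 libraries, each counted once, mean methylation was 63.1%, 63.4%, 63.5% and 63.5% in NSC replicates 1 to 4, and 66.6%, 67.2%, 65.0% and 67.4% in week 1 replicates 1 to 4. The groups did not overlap in this mean, and week 1 replicate 3 was the nearest to the controls. NSC averaged 63.4% ± 0.21 and week 1 graft tissue 66.6% ± 1.10 (SD, n = 4 each), a difference of 3.17 points. An exact two-sided permutation test gave p = 0.0286, the smallest that 4 against 4 libraries allow. The groups overlapped, and p was 0.0571 by the same exact test, in 2 other forms of the mean. With reads pooled, the difference was 3.17 points and week 1 replicate 3, at 65.5%, lay below NSC replicate 1, at 65.8%. Over 550 CpGs averaged over both strands, the difference was 1.85 points and week 1 replicate 3, at 66.4%, lay below NSC replicate 3, at 67.5%. The median cytosine was at 77.7% in NSC and 82.6% at week 1.

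The difference lay in cytosines at intermediate and high levels, while the share at low levels moved little. With 10 reads drawn at each cytosine, the share between 20% and 80% methylation was 41.0%, 39.6%, 39.7% and 39.9% in NSC replicates 1 to 4. It was 34.9%, 33.0%, 37.6% and 32.3% in week 1 replicates 1 to 4, below every NSC library. The share fell by 5.63 points, from 40.1% ± 0.66 (SD, n = 4) to 34.4% ± 2.35 (SD, n = 4), with an exact two-sided permutation p of 0.0286. Cytosines above 80% made up 40.6% ± 0.66 of the total in NSC and 46.6% ± 2.38 at week 1 (SD, n = 4 each). Those under 20% made up 19.4% ± 0.06 and 19.0% ± 0.16 (SD, n = 4 each). That difference was small, -0.386 points, but the groups did not overlap in it either (exact two-sided permutation p = 0.0286). Every library had the same number of reads per cytosine in these shares.

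**Figure D1:**
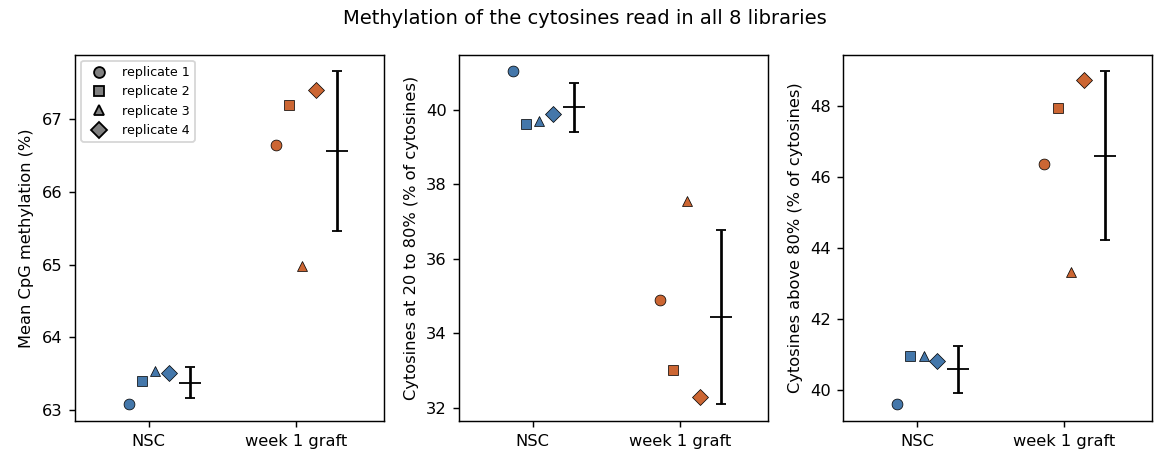
Mean CpG methylation (left, %) and, on 10 drawn reads, the shares of cytosines at 20% to 80% (middle, %) and above 80% methylation (right, %), over 46416 cytosines; points are libraries, bars the group mean and SD, and no axis starts at 0. The week 1 libraries lie above NSC on the left (65.0% to 67.4% against 63.1% to 63.5%) and right and below NSC in the middle.

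Among the 14151 tiles, 1042 were higher at week 1 and 346 were lower, 7.36% and 2.45% of those tested and 9.81% together. A call needed an adjusted p below 0.05 (edgeR quasi-likelihood test, Benjamini-Hochberg over all tiles) and 10 points between the group means. An unadjusted p below 0.05 was reached by 3530 tiles, 24.9%. The 4 week 1 libraries, or the 3 with reads, all lay outside the NSC range in 988 of the 1042 higher tiles and 337 of the 346 lower tiles. Over all tiles, groups lay apart with week 1 higher in 15.4%, with week 1 lower in 4.78%, and in either direction in 20.1%. The median tile was 1.30 points higher at week 1, and 62.7% of tiles had a difference above 0. With at least 5 cytosines per tile the median difference was 0.499 points.

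The split of 75.1% higher calls was computed again with a shift of whole libraries taken out. When the median of each library was subtracted, limma on the tile percentages called 835 higher and 883 lower tiles, 48.6% of them higher. That took 5.29 points from week 1 relative to NSC, more than the 1.30 points by which the median tile differed, and left the median tile at -4.02 points. When only the 1.30 points were subtracted, a setting chosen after seeing the data, limma called 873 higher and 384 lower tiles, 69.5% of them higher. The count of higher tiles also moved with single libraries: it was 694 without NSC replicate 1 and 626 without week 1 replicate 4. With 10 reads drawn at each cytosine the counts were 625 higher and 252 lower tiles, and 555 and 239 of these were also called at full depth.

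Higher tiles mostly went from intermediate to high methylation. Their median level was 57.6% in NSC and 85.3% at week 1, and their median difference was 25.3 points (quartiles 18.5 and 33.5). Of the 1042, 589 went from between 20% and 80% to above 80%, 279 stayed between 20% and 80%, 92 went from under 20% to between 20% and 80%, and 2 went from under 20% to above 80%. A further 69 were above 80% in both groups and 11 under 20% in both. Over all 14151 tiles, those between 20% and 80% numbered 4815 in NSC and 3550 at week 1, those above 80% 6002 and 7259, and those under 20% 3334 and 3342.

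Lower tiles were divided more evenly among kinds of change. Their median level was 70.8% in NSC and 29.0% at week 1, and their median difference was -29.9 points (quartiles -40.0 and -22.9). Of the 346, 114 stayed between 20% and 80%, 109 went from there to under 20%, 104 went from above 80% to between 20% and 80%, 13 were under 20% in both groups and 6 above 80% in both. At 25 points, 529 higher and 232 lower tiles were left. With no minimum difference there were 1209 and 392. The minimum of 10 points cut through a continuum, with the nearest tile inside at 10.1 points and the nearest outside, among 213 tiles with an adjusted p below 0.05, at 9.99 points.

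**Figure D2:**
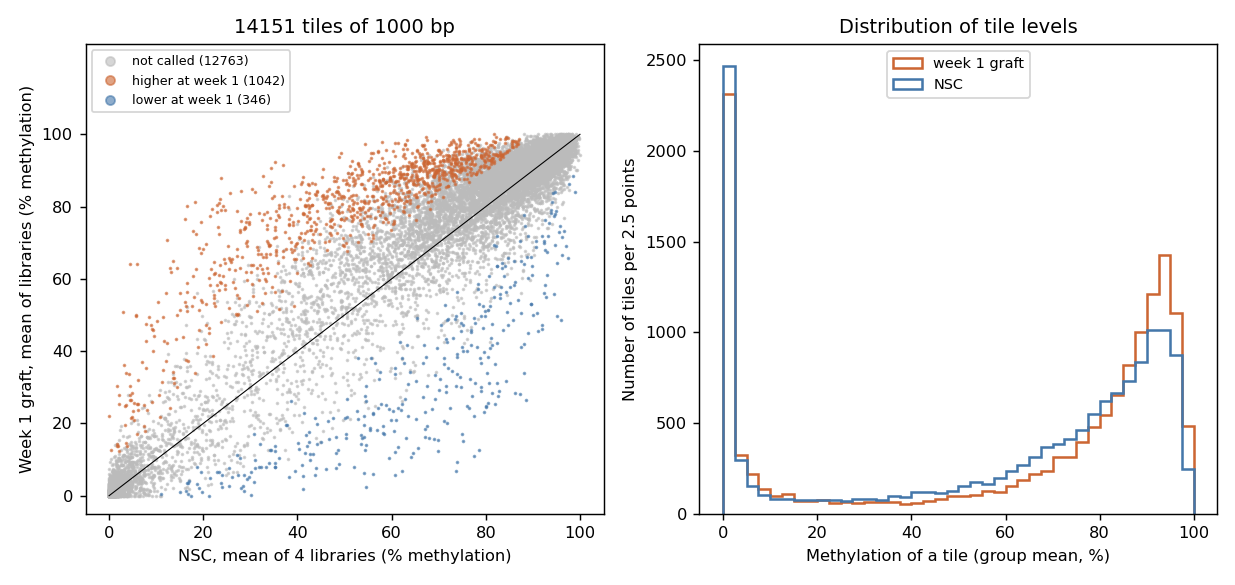
Left, mean methylation of each of 14151 tiles in NSC (horizontal, %) against week 1 (vertical, %), with called tiles in colour; right, the number of tiles at each level (%) in the 2 groups. The 1042 higher tiles sit above the diagonal, mostly where NSC was intermediate, and tiles above 80% number 7259 at week 1 and 6002 in NSC.

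The largest increases are given by library because they show how far single tiles moved. They were taken from the 193 higher tiles whose groups did not overlap and that had at least 100 reads in every library. All positions are of mRatBN7.2 (tiles counted from position 1). An annotation of that build was not used here, so no gene or genomic feature is assigned to a tile. On chromosome 8, from 110015001 to 110016000, methylation was 25.2%, 23.6%, 21.4% and 15.7% in NSC replicates 1 to 4 and 75%, 85.9%, 60.2% and 88.3% in week 1 replicates 1 to 4. Its mean rose from 21.5% ± 4.16 to 77.3% ± 12.8 (SD, n = 4 each), a log2 odds ratio of 3.75 ± 0.48 (SE, adjusted p = 0.000195). All 5 of its cytosines, from 110015526 to 110015795, were higher at week 1, by 32.5 to 65.9 points.

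For the tile from 116764001 to 116765000 on chromosome 7, methylation was 23.2%, 22.3%, 14.7% and 10.8% in NSC and 60.8%, 83.8%, 61.3% and 87.4% at week 1, in replicate order. Week 1 replicates 2 and 4 were above 80% and replicates 1 and 3 near 61%, so the week 1 spread was wide while the groups stayed far apart (log2 odds ratio 3.82 ± 0.51, SE, adjusted p = 0.000257). On chromosome 10, the tile from 81286001 to 81287000, with 9 cytosines, rose from 19.9%, 17.1%, 9.38% and 6.58% in NSC to 65.7%, 70.02%, 38.4% and 73.4% at week 1 (log2 odds ratio 3.58 ± 0.47, SE, adjusted p = 0.000209). Week 1 replicate 3 had moved least there. A tile with 5 cytosines on chromosome 3, from 163395001 to 163396000, rose from 19.7%, 28.7%, 30.2% and 38.4% to 68.5%, 79.9%, 73.1% and 85.7% (log2 odds ratio 3.06 ± 0.40, SE, adjusted p = 0.000209). The other 4 of the 8 largest increases, on chromosomes 1, 14, 8 and 15, rose by 37.5 to 40.2 points, and all their cytosines were higher at week 1.

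The 4 higher tiles with the smallest adjusted p differed in the size of their shift, from 20.1 to 58.2 points. The tile on chromosome 19 from 55724001 to 55725000 was at 68.1%, 68.5%, 65.9% and 67.8% in NSC and at 95.7%, 94.7%, 92.8% and 95.6% at week 1. Its mean went from 67.6% ± 1.15 to 94.7% ± 1.35 (SD, n = 4 each; adjusted p = 8.13e-06), the smallest adjusted p of a higher tile. A tile on chromosome 6, from 106620001 to 106621000, had 451 to 4572 reads per library, summed over 10 cytosines. It rose from 70.1% ± 1.01 to 90.2% ± 2.63 (SD, n = 4 each), and 9 of its 10 cytosines were higher. With a limit on very high coverage it was absent and could not be tested. On chromosome 15, the tile from 7787001 to 7788000 was at 53.0%, 55.2%, 58.7% and 53.8% in NSC and 90.8%, 96.9%, 87.8% and 95.1% at week 1, with 12 of 12 cytosines higher. On chromosome 3, the tile from 15725001 to 15726000 differed from these in starting near 0: it was at 3.87%, 2.69%, 5.56% and 11.8% in NSC and at 50%, 80.2%, 59.6% and 66.8% at week 1. Its 8 cytosines, all on the minus strand, each gained 25.4 to 70.03 points, and week 1 replicate 1 had only 54 reads in it (adjusted p = 6.92e-05).

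Decreases were ranked among the 61 lower tiles whose groups did not overlap and that had at least 100 reads in every library. The largest of these decreases was also the tile with the smallest adjusted p of all 14151. On chromosome 2, in the tile from 185531001 to 185532000, methylation was 80.7%, 76.6%, 82.4% and 74.5% in NSC replicates 1 to 4 and 12.9%, 10.1%, 10.1% and 17.1% in week 1 replicates 1 to 4. Both groups were tight, at 78.6% ± 3.63 and 12.6% ± 3.32 (SD, n = 4 each), and the log2 odds ratio was -4.69 ± 0.32 (SE, adjusted p = 8.35e-07). Its 4 cytosines, from 185531122 to 185531256, differed by -73.5 to -60.0 points, on 148 to 902 summed reads per library. With a limit on very high coverage, this tile and those below on chromosomes 5 (from 49670001) and 19 (from 54823001) were absent and could not be tested. On chromosome 5, in the tile from 49670001 to 49671000, methylation was 78.5%, 60.6%, 67.3% and 73.3% in NSC and 17.4%, 8.29%, 14.8% and 8.75% at week 1 (log2 odds ratio -4.12 ± 0.39, SE, adjusted p = 3.47e-05).

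Near-complete loss was seen in the tile on chromosome 19 from 54823001 to 54824000. NSC replicates 1 to 4 were at 48.1%, 57.2%, 57.1% and 55.7%, while 2 week 1 libraries, replicates 2 and 4, had no methylated read. Week 1 replicates 1 and 3 were at 1.38% and 7.76%, and the adjusted p was 0.000102. The reads summed over its 5 cytosines in replicates 2 and 4 were 325 and 370. A read can cover several of these cytosines, so the number of molecules behind the 0 is smaller. On chromosome 9, the tile from 15169001 to 15170000 went from 57.3%, 61.0%, 59.3% and 60.2% to 5.37%, 8.60%, 19.9% and 8.08%, with all 11 cytosines lower. Its cytosines from 15169097 to 15169315 differed by -66.3 to -34.8 points. Those at 15169951 and 15169952 were already at 6.73% and 14.0% in NSC and at 0% at week 1.

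Some tiles held cytosines that did not move with the rest. The tile on chromosome 13 from 95340001 to 95341000 fell from 77.5% ± 7.03 to 22.02% ± 9.79 (SD, n = 4 each; adjusted p = 0.000102). Its 7 cytosines from 95340379 to 95340519 differed by -69.6 to -37.5 points, while the cytosine at 95340625 was at 72.9% in NSC and 69.2% at week 1. On chromosome 1, the tile from 61462001 to 61463000 fell from 89.5% ± 2.22 to 53.1% ± 3.69 (SD, n = 4 each; adjusted p = 4.67e-05). There, 3 cytosines from 61462243 to 61462312 differed by -50.99 to -44.95 points, while the cytosine at 61462129 was at 94.4% in NSC and 92.9% at week 1. The change thus covered part of each tile. The other 3 of the 8 largest decreases, on chromosomes 1, 8 and 19, fell by 44.1 to 47.1 points. On chromosome 8, in the tile from 96975001 to 96976000, week 1 replicate 3 was at 64.6% and the other 3 week 1 libraries at 34.3%, 29.0% and 17.3%, against 78.9% to 84.1% in NSC.

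**Figure D3:**
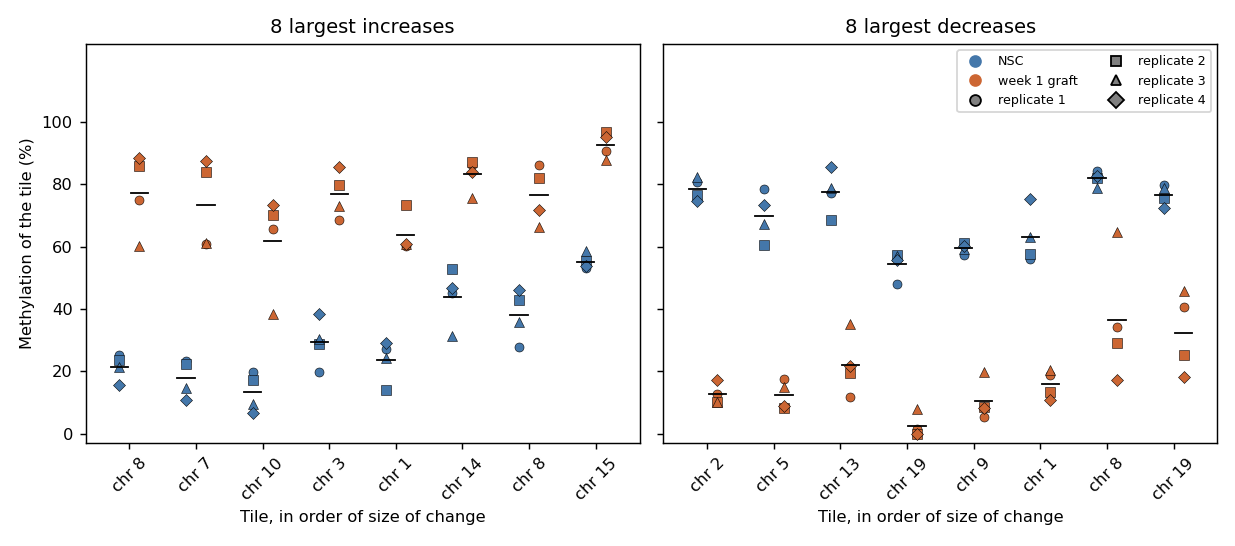
Methylation (%) of the 8 largest increases (left) and the 8 largest decreases (right) in each library; symbols are replicates and bars are group means. The tiles were chosen as ones whose groups do not overlap; week 1 replicate 3 is the nearest to NSC in several, as at 38.4% on chromosome 10 and 64.6% on chromosome 8.

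Cytosines within a called tile moved together. Of 4882 cytosines in higher tiles, 96.1% were higher at week 1, and of 1577 in lower tiles, 96.0% were lower. Every cytosine had the direction of its tile in 913 higher tiles (87.6%) and 302 lower tiles (87.3%). These cytosines chose the call, and many share reads, so the shares are a description. Where both strands of a tile could be assigned and read, they had the same direction in 49 of 52 higher and 12 of 14 lower tiles. Strand was assigned only where the CpG partner of a cytosine was listed too.

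Changes reached a neighbouring tile in only part of the cases. Of 91 measured neighbours of higher tiles within 2000 bp, 26 (28.6%) were called higher and 2 lower, with a median difference of 7.77 points, beside 7.36% of all tiles called higher. Of 39 neighbours of lower tiles, 4 (10.3%) were called lower and 2 higher, with a median difference of -1.87 points, beside 2.45% of all tiles. In these counts a pair with both tiles called entered from each side, so the neighbours are not all distinct pairs. Over 981 pairs of tiles within 2000 bp, differences correlated with r = 0.22, a description across tiles that share libraries. Most called tiles stood alone, 1009 runs of 1 tile among the higher and 342 among the lower, and most had no measured neighbour within 2000 bp. The only run of 3 was on chromosome 12, from 26938001 to 26944000. Its tiles went from 34.9% ± 4.94 to 82.9% ± 1.38 (week 1 n = 3), from 33.5% ± 13.3 to 70.4% ± 21.6 and from 33.2% ± 2.61 to 56.0% ± 3.91 (SD, n = 4 otherwise), with adjusted p of 0.000392, 0.0198 and 0.00548.

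Tiles with many CpGs changed least. Tiles were classed by the number of CpGs listed in them, and class means were taken over tiles read in all 8 libraries. Of 5076 tiles with 11 to 20 CpGs, 9.16% were higher and 3.09% lower, and their mean went from 68.8% in NSC to 72.8% at week 1. Of 3804 tiles with 6 to 10 CpGs, 8.20% were higher and 2.31% lower, and of 1393 with 1 to 5 CpGs, 6.82% and 2.15%. Of 2792 tiles with 21 to 40 CpGs, 5.91% were higher and 2.18% lower. Of 1086 tiles with over 40 CpGs, 5 were higher and 10 lower, 0.46% and 0.92%, and their mean went from 7.40% to 7.98%. All 4 week 1 libraries lay above all NSC libraries in the mean of each of the 5 classes. Dense tiles were mostly near 0 in both groups, where a rise of 10 points is a large one.

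The tiles with over 40 CpGs that were called are described here after their values were seen. On chromosome 4, the tile from 87745001 to 87746000, with 45 CpGs listed, was at 15.6%, 20.6%, 12.5% and 15.8% in NSC and 63.6%, 50%, 62.5% and 38.8% at week 1 (adjusted p = 0.00356). Another on the same chromosome, from 32843001 to 32844000, with 73, went from 43.7% ± 10.4 to 83.4% ± 11.5 (SD, n = 4 each; adjusted p = 0.0249). The other 3 changed by less: on chromosome 7 from 107694001 the mean went from 27.2% to 49.9%, on chromosome 6 from 26320001 from 6.19% to 23.7%, and on chromosome 5 from 135617001 from 3.77% to 13.9%. On chromosome 4 from 87745001, a week 1 library had only 16 reads. On chromosome 5, week 1 replicate 1 had no cytosine with 10 reads, and 8 of 11 cytosines were higher. The groups overlapped in the tile on chromosome 6.

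The 10 dense tiles that were lower fell by 17.4 to 29.7 points, and all their cytosines were lower at week 1. On chromosome 10, the tile from 43963001 to 43964000, with 58 CpGs listed, was at 20.5%, 22.5%, 41.9% and 29.4% in NSC. Week 1 replicates 1 and 3 had no methylated read there, on 147 and 97 reads summed over 7 cytosines. The number of molecules is smaller, because a read can cover several of these cytosines. Week 1 replicate 4 was at 3.81%, and replicate 2 had no cytosine with 10 reads (adjusted p = 0.00186). On chromosome 17, the tile from 8799001 to 8800000, with 15 cytosines, went from 25.1%, 28.4%, 35.3% and 22.3% to 14.0%, 8.33%, 10.5% and 8.58% (adjusted p = 0.00538). On chromosome 9, the tile from 13526001 to 13527000 went from 37.6%, 35.4%, 18.8% and 41.3% to 12.9%, 7.69%, 8.97% and 1.90% (adjusted p = 0.00601). The highest of the 10 in NSC, on chromosome 8 from 110702001, went from 79.8% ± 9.998 (SD, n = 4) to 51.0% ± 6.56 (SD, n = 3). In 6 of the 10 tiles 1 week 1 library had no cytosine with 10 reads, and the groups overlapped in 1, on chromosome 7 from 132162001.

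**Figure D4:**
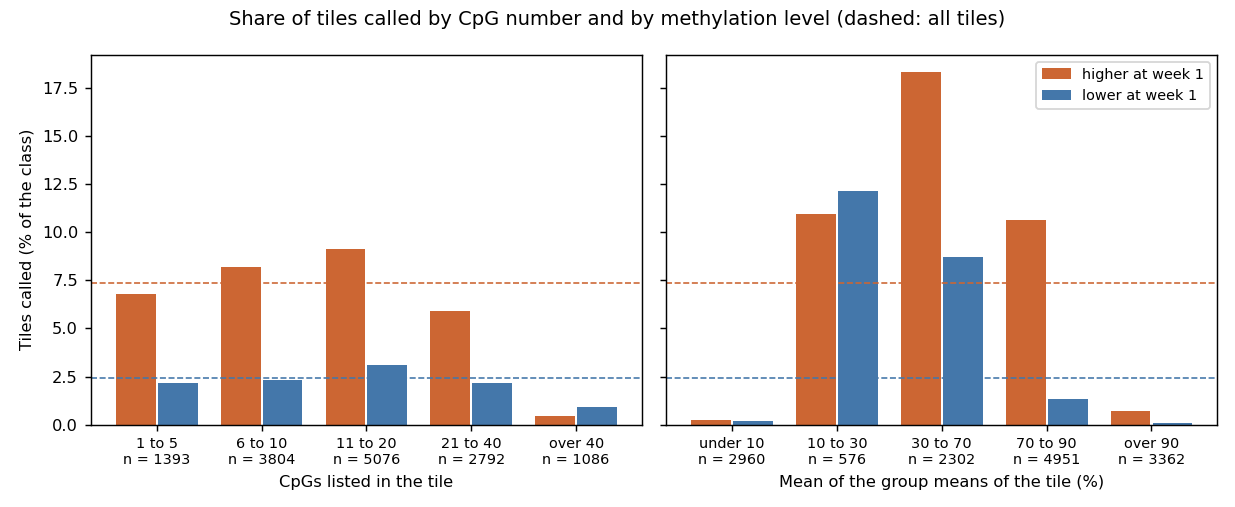
Share of tiles called higher and lower (bars, %) by the number of CpGs listed in the tile (left) and by the midpoint of the group means (right); dashed lines give the shares over all tiles. By CpG number, calls were least frequent over 40 CpGs (0.46% higher, 0.92% lower), and by level they were most frequent at midpoints of 30% to 70% (18.3% higher, 8.73% lower).

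By level, calls were most frequent in the middle of the scale. The midpoint of the 2 group means placed 2302 tiles between 30% and 70%, of which 18.3% were higher and 8.73% lower, and their mean went from 52.6% to 59.0%. Of 4951 tiles between 70% and 90%, 10.6% were higher and 1.35% lower, with means of 79.4% and 84.2%. The 576 tiles between 10% and 30% differed from these: 63 were higher and 70 lower, 10.9% and 12.2%, and the class mean was 19.6% in NSC and 19.5% at week 1, with overlapping groups. Under 10%, 7 of 2960 tiles were higher and 5 lower. Over 90%, 23 of 3362 were higher and 3 lower. Near 0% and 100% a difference of 10 points has little room. The midpoint uses the values tested, so the class counts are a description.

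All 20 autosomes moved the same way. Mean methylation was higher in every week 1 library than in every NSC library on each of chromosomes 1 to 20, by 2.52 points on chromosome 4 to 3.85 points on chromosome 18. Week 1 replicate 3 was the lowest week 1 library on all 20. The share of tiles called higher ran from 5.42% on chromosome 5 to 11.1% on chromosome 20. The share called lower ran from 1.23% on chromosome 18 to 3.6% on chromosome 14. The chromosomes share their libraries, so 20 chromosomes are not 20 replicates.

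**Figure D5:**
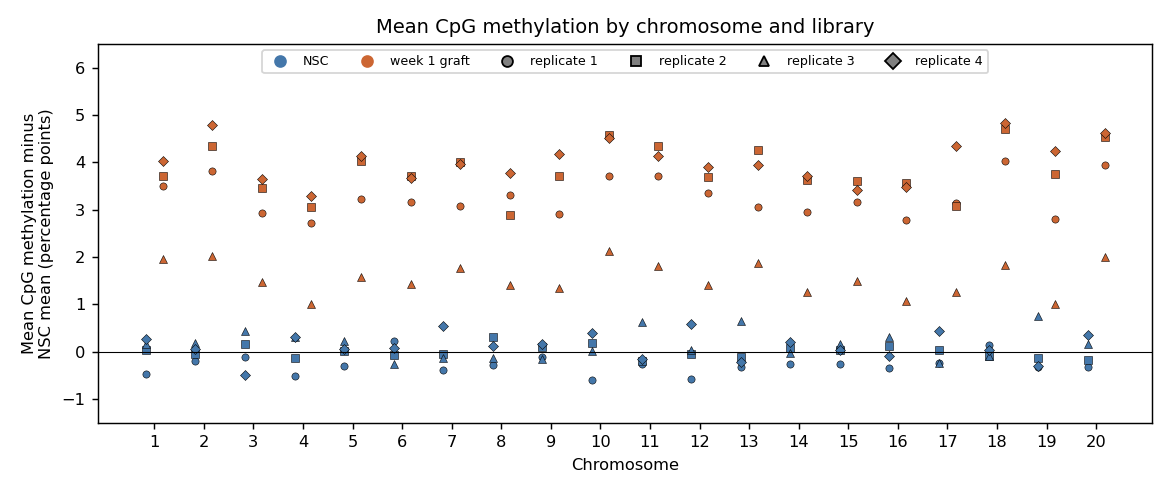
Mean CpG methylation of each library minus the NSC mean (percentage points) on chromosomes 1 to 20; symbols are replicates and colours are groups. The week 1 libraries lie above NSC on every chromosome, by 2.52 to 3.85 points between group means.

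Week 1 replicate 3 had the lowest mean methylation of the week 1 libraries. Over the 9038 tiles with reads in all libraries, however, replicate 1 differed least from each NSC library, by a mean of 9.86 to 10.07 points per tile on 10 drawn reads, against 10.26 to 10.36 points for replicate 3. Among called tiles with reads in all libraries, replicate 3 was the nearest week 1 library to the NSC mean in 352 of 780 higher tiles (45.1%) and in 83 of 247 lower tiles (33.6%). Each week 1 library was also set against tiles called without it. Replicate 3 lay beyond the NSC range in the called direction in 852 of 996 higher tiles (85.5%) and 290 of 319 lower tiles (90.9%). The other 3 did so in 93.6% to 96.8% of higher and 94.0% to 96.9% of lower tiles. Over all tiles a week 1 library was above the NSC range in 34.4% to 42.3% and below it in 14.6% to 21.2%, and the NSC libraries are the same in both uses.

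The libraries of a group were closer to each other than to the other group. On 10 drawn reads per cytosine over 9038 tiles, 2 NSC libraries differed by a mean of 7.14 to 7.43 points per tile, 2 week 1 libraries by 7.21 to 9.12 points, and an NSC and a week 1 library by 9.86 to 11.04 points. The median SD per tile on the same reads was 5.29 points in NSC and 5.54 points at week 1. In higher tiles it was 7.49 in NSC and 6.38 at week 1, and in lower tiles 6.94 and 8.08. These SDs include the scatter of the drawn reads, which depends on the level, and the level of called tiles differs between groups. Called tiles were also selected partly by their spread, so a change in spread between libraries was not tested. Methylated and unmethylated read counts were also compared between libraries by a chi-square divided by its degrees of freedom. It used all reads, not the 10 drawn, and left out cytosines of very low or very high level. This ratio was 3.04 to 3.63 between NSC libraries, 2.49 to 2.88 between week 1 libraries and 3.84 to 7.02 between groups. The NSC libraries were deeper, so these ratios are not on equal depth and do not rank the groups by closeness. Within each group, no pair was set apart by a much lower ratio. Within each group the ratio exceeded 1 too, and the reason was not tested. A ratio above 1 is therefore not read by itself as a difference between libraries.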

How the data were processed

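Per the labels' protocols, MspI-digested DNA was cleared of fragments above 300 bp and bisulfite-converted before library preparation. The submitters' processing notes name Trim Galore, FastQC, Bismark 0.23.0, methylKit 1.14.2 and the build mRatBN7.2, with no order or role. The deposited files give the count of methylated reads and the count of all reads per CpG cytosine, and the methylation in percent. In the 8 files used, the deposited percent equalled the ratio of the counts truncated to a whole number, and no cytosine with under 5 reads was listed. Methylation was recomputed from the deposited counts, without normalization.

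Cytosines of chromosomes 1 to 20 with at least 10 reads in all 4 controls and at least 3 week 1 libraries were summed in tiles of 1000 bp with at least 3 such cytosines. A cytosine under 10 reads in a library added nothing for that library. edgeR 4.0.16 (R 4.3.3) fitted methylated and unmethylated counts with 1 effect per library, a week 1 effect, a common dispersion and the quasi-likelihood F test of earlier edgeR versions. The newer version of that test failed numerically at a minimum of 5 reads and was kept as an alternative. The script was tested on simulated counts. The SE of a log2 odds ratio is its size over the square root of F, an approximation. A call needed a Benjamini-Hochberg adjusted p below 0.05 over all tiles and 10 points between group means. Values per library were compared by exact two-sided permutation tests (scipy 1.17.1). For shares of cytosines by level, 10 reads were drawn at each cytosine of each library.

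Named tiles were the 8 largest increases and 8 largest decreases among called tiles whose groups did not overlap and which had at least 100 reads in every library, and the 4 smallest adjusted p in each direction. Blocks were runs of at least 3 called tiles of 1 direction with starts at most 5000 bp apart. The rules, settings and groups were chosen with earlier results of these data known. Replicates were numbered in accession order. Separate animals are not stated in the labels, and p-values therefore cover only the spread among these libraries, part of which may be technical. Planned gene lists were not run, because the gene tables at hand are of another build and coordinates were not converted. Alternatives, with their effect given in the closing observations, changed the read minimum, the tiles, the depth, the test (limma 3.58.1 among them) and the libraries used. Tables and plots were made with Python 3.11.15, numpy 2.4.6, pandas 2.3.3 and matplotlib 3.10.9. Day 1 libraries entered neither selection nor test.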

Additional observations from a re-analysis of the deposited data

Results flagged for a closer look

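Each group of 4 libraries was searched for a library far from the other 3, in the mean CpG methylation, the share of cytosines at intermediate methylation and the 20 named tiles. This gave 44 groups, and chance marks about 1 in 20 of them; 2 were marked. In the tile on chromosome 1 from 256390001 to 256391000, week 1 replicate 2 was at 73.4%, while the other 3 week 1 libraries lay between 60.1% and 60.8%. In the tile on chromosome 19 from 54823001 to 54824000, NSC replicate 1 was at 48.1%, while the other 3 NSC libraries lay between 55.7% and 57.2%. Both tiles had been chosen as ones whose groups did not overlap, so the marked library lay on its own group's side by selection.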

How the results depend on the processing

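Against 1042 higher and 346 lower tiles, a minimum of 5 reads gave 2411 and 843 (of 57942 tiles) and a minimum of 20 reads 362 and 103 (of 2810). At least 10 reads in all 8 libraries gave 663 and 202 (of 6052), at least 5 cytosines per tile 401 and 118 (of 5383), and 10 drawn reads 625 and 252. A 25 point minimum gave 529 and 232, and limma after subtracting library medians 835 and 883. The other planned settings, limma on percent, quasi-binomial regression, a trended dispersion, a limit on very high coverage, cytosines under 10 reads added, tile means over cytosines, no minimum difference and 500 bp tiles, kept both counts within 1.5 times. Leaving out 1 library gave 626 to 1105 higher tiles (626 without week 1 replicate 4, 694 without NSC replicate 1) and 256 to 345 lower ones. Alternatives chosen after seeing the data were dispersion 0, with 1657 and 526, the newer quasi-likelihood method, with 1215 and 396, tiles read in all libraries, with 900 and 273, and limma with the median tile difference subtracted, with 873 and 384. The median tile difference of 1.30 points was 0.499 with at least 5 cytosines and 1.144 to 1.61 without 1 library. The difference in mean methylation was 3.17 points with reads pooled and 1.85 over 550 CpGs averaged over strands (exact permutation p = 0.0571 for both), and 2.89 to 3.70 without 1 library. The share of cytosines between 20% and 80% differed by -6.66 to -4.91 points without 1 library. With 1 library left out, 0.0571 is the smallest exact permutation p possible. The 20 named tiles kept their calls wherever they could be tested, in 490 combinations of tile and setting, with adjusted p up to 0.0417. In 10 combinations the tile was absent. With the limit on very high coverage, the absent tiles included those on chromosomes 2 (from 185531001), 5 (from 49670001), 19 (from 54823001) and 6 (from 106620001). The calls of these tiles were therefore not tested without very high coverage. These tiles were chosen from the same libraries for a large difference or a small adjusted p, so their kept calls are no independent support. No paired analysis was possible because replicate numbers were given in accession order and pair no samples. With tiles split in 4 equal classes by reads, 7.81% were called in the class with the fewest and 11.96% in the class with the most. These classes hold different tiles, so whether depth was the reason was not tested by them.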

Other observations

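Chromosome X was outside the selection and was looked at separately. The 464 cytosines of chromosome X with at least 10 reads in all 8 libraries had a mean methylation of 76.2% ± 0.36 in NSC and 76.6% ± 1.505 at week 1 (SD, n = 4 each). An exact two-sided permutation test of the difference, 0.388 points, gave p = 0.714. Week 1 replicate 3, at 74.4%, was below all 4 NSC libraries, which lay between 75.8% and 76.5%, and the other week 1 libraries were at 76.8%, 77.4% and 77.8%, above all of them. Whether chromosome X differed from the autosomes in this respect was not tested.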
